A study of Mus musculus with 8 samples.

Results

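Myc-CaP tumors that carried a control vector and kept *Arid1a* intact (WT tumors) were compared with and without JSH-23, a small molecule that inhibits the nuclear entry of the NF-κB subunit p65. The members are the 2 WT samples given JSH-23 and the 2 WT samples given vehicle, chosen by their genotype and treatment labels, which makes 4 of the 8 samples of the series. Myc-CaP is a mouse prostate cancer line driven by a *Myc* transgene, here with the empty vector (EV), and the cells were grown under the skin of male FVB mice aged 6 weeks. From day 16, JSH-23 dissolved in DMSO and diluted in corn oil was given by gavage each day for 2 weeks, while the vehicle group received corn oil. The remaining 4 samples are *Arid1a* KO tumors of the same line, made with a guide RNA against *Arid1a*, with vehicle (2 samples) or JSH-23 (2 samples). RNA was sequenced from cells sorted as EpCAM-positive and CD45-negative. The sources used here do not say whether the EV line was 1 clone, nor how many tumors went into a sample.

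NF-κB is a family of dimeric transcription factors that inhibitor proteins such as IκBα hold in the cytoplasm. Signals from cytokine and Toll-like receptors activate a kinase complex that removes the inhibitor, and the freed dimers enter the nucleus and switch on genes of inflammation, survival and proliferation. Some of these genes encode inhibitors of the pathway itself, so that its activity is limited by feedback. In prostate tumors the pathway is known as a source of chemokines that act on the receptor CXCR2 of myeloid cells.

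The promoters of the chemokine genes *Cxcl1* and *Cxcl2* and of *Nfkbia*, which encodes IκBα, are shown because these genes hold a κB motif and moved in opposite directions with JSH-23, the chemokine genes down and *Nfkbia* up. The motif searched was GGGA and TTCC with any 2 bases between them, on either strand, within 250 bases upstream of the RefSeq starts (build GRCm38.p6). Matches are in capitals, and overlapping matches were merged. The stretches end at the base before the start and are written 5′ to 3′ on the strand of the gene.
Cxcl1, chr5:90891125-90891244, + strand: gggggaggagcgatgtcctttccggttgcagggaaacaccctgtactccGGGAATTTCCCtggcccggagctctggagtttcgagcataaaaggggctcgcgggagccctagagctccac
Cxcl2, chr5:90903779-90903898, + strand: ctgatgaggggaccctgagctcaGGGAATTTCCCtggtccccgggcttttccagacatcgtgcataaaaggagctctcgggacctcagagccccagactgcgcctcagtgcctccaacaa
Nfkbia, chr12:55492648-55492767, - strand: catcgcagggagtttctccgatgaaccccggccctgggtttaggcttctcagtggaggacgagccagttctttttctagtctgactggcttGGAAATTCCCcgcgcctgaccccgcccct

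The motif lay from 71 to 61 bases before the start of *Cxcl1*, from 97 to 87 bases before that of *Cxcl2* and from 29 to 20 bases before that of *Nfkbia*. It was present upstream of 7 of the 29 tested NF-κB target genes that had a RefSeq promoter (24.1%), against 157 of 11001 tested genes with one (1.43%). Among all genes called lower with JSH-23 it was present in 15 of 1034 (1.45%), and among those called higher in 13 of 597 (2.18%), so the share over all called genes was close to that of all tested genes. These matches describe letters in a window and not binding.

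Total counts were between 16401581 and 17792910 in the 4 WT samples, so that 3 counts, taken as the lowest level told from 0, corresponded to 0.169 to 0.183 CPM (counts scaled to library size). Replicates lay close together, the biological coefficient of variation being 1.61% over 13921 tested genes, and p-values measure only this spread, which may be technical. The sorted cells went against the label, since *Epcam*, the gene of the sorting antigen, had 0 and 1 counts with vehicle and 0 and 0 with JSH-23. *Cdh1*, the epithelial cadherin, had 8 and 5 against 4 and 1 counts, and *Krt18* 8 and 6 against 5 and 4, while the keratins *Krt8* and *Krt19* were readily counted. *Ptprc*, which encodes CD45, had at most 10 counts in any WT sample. The T cell genes *Cd3d*, *Cd3e* and *Cd8a* and the neutrophil gene *Ly6g* had none. Of the fibroblast genes, *Pdgfra* had 952 and 986 against 970 and 876 counts, while *Col1a1* had at most 61, *Dcn* 14 and *Lum* 2. A WT library stood apart in each group. In the first vehicle sample 6 genes had 3 or fewer counts where the other 3 WT libraries had at least 15, among them the smooth muscle genes *Acta2* and *Myh11* (2 counts against 64, 71 and 72 for *Myh11*). In the second JSH-23 sample 12 genes were low in the same way, among them the macrophage genes *Adgre1* and *Csf1r* (1 count against 21, 24 and 15 for *Csf1r*). Genes that were high in that sample alone among the 4 WT libraries included the neurofilament genes *Nefl* and *Nefm* and the transcript A230070E04Rik. *Nefm* had 60 counts there against 0, 0 and 0. The part that these transcripts play in the results below was not tested, and results that rest on either library are given without it.

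**Figure D1:**
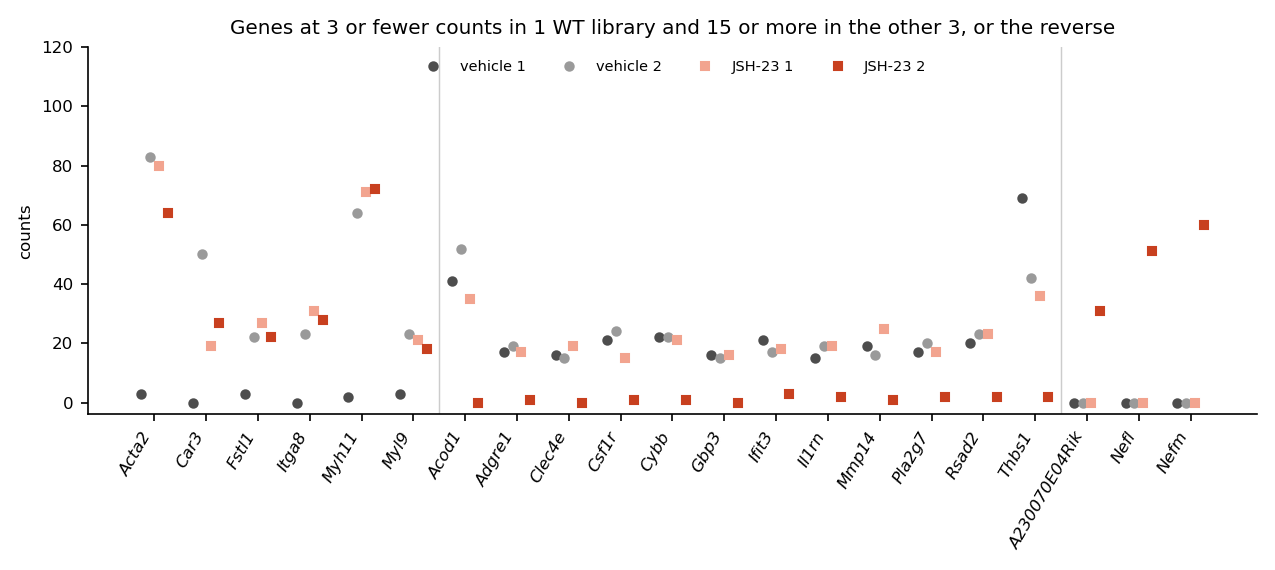
Raw counts (linear axis) of genes with 3 or fewer counts in 1 WT library and 15 or more in the other 3, or the reverse, for the first vehicle and the second JSH-23 sample. Points are single libraries. The left block is low in the first vehicle sample, the middle block low in the second JSH-23 sample, and the right block, with *Nefm* at 60 counts, high in that sample.

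JSH-23 lowered more genes than it raised in WT tumors. A gene was called changed at a Benjamini-Hochberg adjusted p under 0.05 in edgeR's quasi-likelihood test and a change of at least 1.5-fold, where log2 fold changes are JSH-23 over vehicle. By this rule 773 genes were higher (5.55% of those tested) and 1424 lower (10.2%), and the 2 JSH-23 samples did not overlap the 2 vehicle samples in 764 and 1416 of them. The median log2 fold change of all tested genes was -0.01. With no fold threshold the balance changed, since 3985 genes were higher (28.6%) and 3789 lower (27.2%). These shares are the background for the counts given below at an adjusted p under 0.05 of any size. In this fit the shares of higher and lower genes lay furthest apart at low levels. In the lowest quintile of mean CPM, at most 2.28 CPM, 19.9% of genes were lower and 6.4% higher, and in the highest quintile, from 84.58 CPM, 3.2% were lower and 2.1% higher. From 2.28 to 15.04 CPM 18.1% were lower and 10.2% higher. The shares were nearly balanced from 15.05 to 37.98 CPM (6.4% lower, 5.9% higher) and from 37.98 to 84.57 CPM (3.6% and 3.2%). In this fit the excess thus lay mostly in genes of at most 15.04 CPM. A fit of only the 9195 genes that averaged 10 CPM or more over all 8 samples called 308 higher and 531 lower (63.3% of calls against 64.8% over all tested genes). Its libraries were scaled on those genes, whereas the quintiles average the 4 WT samples only. The fit admits genes between 10 and 15.04 CPM, and it can admit genes below 10 CPM in WT tumors. It therefore cannot tell how far the excess reached above 15.04 CPM. Long non-coding RNAs were called lower in 429 of 1755 cases (24.4%) and protein-coding genes in 968 of 11938 (8.1%). They were also called higher more often, in 8.5% against 5.0%, and 1191 of the 1755 lay in the lowest quintile. There 24.2% of them and 17.4% of protein-coding genes were lower. Within the second lowest quintile 26.7% and 16.2% were lower and 12.4% and 9.6% higher.

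**Figure D2:**
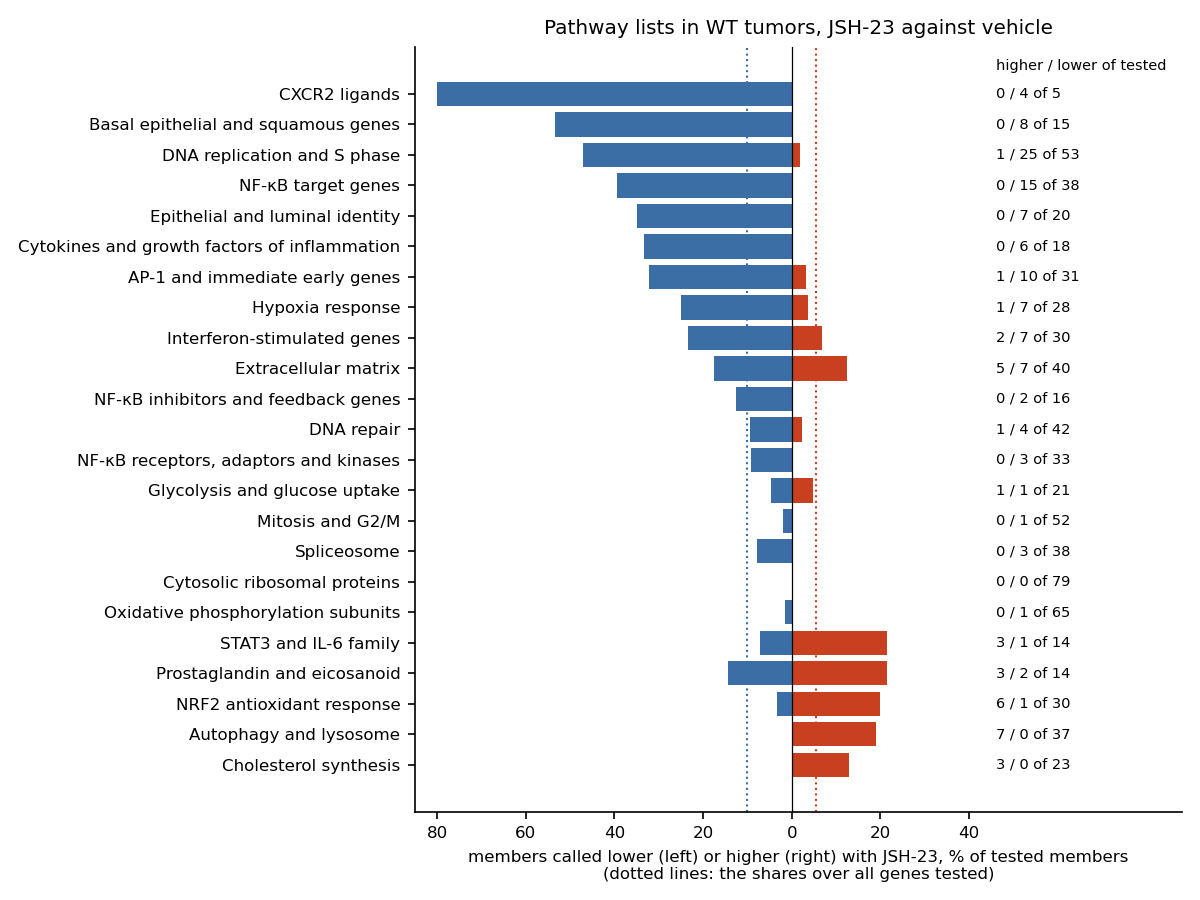
Share of the tested members of each gene list called lower (bars to the left) or higher (bars to the right) with JSH-23 in WT tumors, in percent of tested members, with the counts at the right. Dotted lines mark the shares over all tested genes, 10.2% lower and 5.55% higher. The CXCR2 ligands, the basal epithelial genes and the S phase genes have the longest bars to the left, and the lysosome and NRF2 lists have bars mainly to the right.

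The targeted gene of the series was unedited here. *Arid1a*, which encodes a subunit of the SWI/SNF chromatin remodelling complex, was at 156 and 161 CPM with vehicle against 144 and 155 CPM with JSH-23, levels that lay close together and did not overlap (log2 fold change -0.08, standard error 0.035, adjusted p = 0.0378). Of 24 tested SWI/SNF subunit genes 1 was called lower, *Smarcc2*, at 102 and 102 against 63.5 and 69.2 CPM. *Smarcc2* fell short of 1.5-fold without the first JSH-23 sample. By the adjusted p alone, with no fold threshold, 16 of the 24 were lower and 1 was higher. The shares over all tested genes were 27.2% lower and 28.6% higher. The list had a median log2 fold change of -0.13, and 19 of its genes were negative.

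Among the 5 NF-κB subunit genes, 3 were lower by less than 1.5-fold and 1 was called higher. *Rela*, which encodes p65 itself (chr19:5637442-5648134), was at 81.1 and 81.1 CPM with vehicle against 60.6 and 57.1 CPM with JSH-23. Both treated samples lay below both vehicle samples, with -0.46 for the log2 fold change (standard error 0.049, adjusted p = 1.02e-12). *Nfkb1*, the gene of p105 and p50, was at 82.8 and 73.9 against 60.2 and 59.5 CPM (log2 fold change -0.39). *Relb*, a partner in the non-canonical pathway, was at 18.2 and 16.8 against 13.9 and 13.5 CPM (-0.35), whereas *Nfkb2*, its precursor partner, was at 110 and 112 against 102 and 107 CPM and did not pass the test (-0.08, adjusted p = 0.0638). *Rel*, which encodes c-Rel, went the other way, from 22.98 and 23.8 to 38.3 and 39.5 CPM (0.73, standard error 0.074, adjusted p = 1.06e-13).

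The genes of the receptors, adaptors and kinases that feed the pathway were little changed as a group, with 3 of 33 tested genes lower, none higher and a median of -0.03, while 10 were higher and 14 lower at an adjusted p under 0.05 of any size. *Ikbkg*, which encodes the regulatory subunit NEMO of the IκB kinase, fell from 223 and 225 to 147 and 145 CPM (log2 fold change -0.62). *Tlr3*, a receptor for double-stranded RNA, and *Tlr5*, a receptor for flagellin, fell by 0.94 and 0.90 on the log2 scale.

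The inhibitors and feedback genes did not move together. *Nfkbia* was at 349 and 351 CPM with vehicle against 521 and 527 CPM with JSH-23, so that both treated samples were higher, by 0.58 on the log2 scale (standard error 0.021, adjusted p = 9.58e-36), just under the 1.5-fold threshold, and it passed the threshold without the second vehicle or the first JSH-23 sample. *Zc3h12a*, which encodes the RNase regnase-1, fell from 31.4 and 30.9 to 12.8 and 11.4 CPM (-1.36), and *Nfkbiz*, a nuclear IκB protein that acts as a coactivator, from 90.0 and 91.9 to 47.5 and 43.3 CPM (-0.999). *Tnfaip3*, the gene of the deubiquitinase A20, was at 144 and 139 against 135 and 134 CPM and did not pass the test (-0.07, adjusted p = 0.065). In all, 2 of 16 tested genes of this list were called lower and none higher by edgeR, a share close to the background, with 7 lower and 1 higher at an adjusted p under 0.05 of any size. The 7 included *Tnip1*, *Tnip2*, *Bcl3*, *Pdlim2* and *Commd1*, each with a log2 fold change between -0.20 and -0.10, while *Cyld*, *Otulin* and *Nfkbib* did not pass.

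NF-κB target genes were lower in 15 of 38 tested cases and higher in none, with a median log2 fold change of -0.52. By DESeq2 14 were lower and none higher, and at an unadjusted p under 0.05 with the same fold 16 and none. Among them were *Cxcl5*, *Cxcl1* and *Cxcl2*, genes of CXCR2 ligands, which recruit neutrophils and related myeloid cells. *Ppbp*, a further ligand gene that was not in the target list, was also lower. *Cxcl5* was at 99.5 and 99.8 CPM with vehicle against 24.9 and 25.2 CPM with JSH-23 (log2 fold change -1.99, standard error 0.061, adjusted p = 2.73e-40). *Cxcl1* fell from 37.2 and 36.7 to 13.01 and 10.03 CPM (-1.67), *Cxcl2* from 13.4 and 11.7 to 2.90 and 3.89 CPM (-1.89), and *Ppbp* from 6.77 and 6.82 to 1.51 and 1.95 CPM (-1.98). In each of these 4 the groups were apart by more than the spread within them. The genes lie in 1 stretch of chromosome 5, from the start of *Cxcl5* at 90759298 to the end of *Cxcl2* at 90905938 (GRCm38). The fifth ligand gene, *Cxcl3*, had 5 and 0 against 2 and 0 counts, so a change was not detectable at this depth.

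Other targets with clear falls act in proliferation and myeloid growth. *Ccnd1*, which encodes cyclin D1, was at 245 and 243 CPM with vehicle and 120 and 112 CPM with JSH-23 (log2 fold change -1.07, standard error 0.032). The cytokine gene *Lif* fell from 54.0 and 53.2 to 32.1 and 31.2 CPM (-0.76). *Csf1*, the macrophage growth factor, was at 48.7 and 51.0 against 29.4 and 34.9 CPM (-0.64), and it was no longer called without the first JSH-23 sample. *Csf3*, the granulocyte growth factor, was at 3.21 and 2.88 against 0.558 and 1.03 CPM (-1.94). *Nos2*, the inducible nitric oxide synthase, was at 12.8 and 11.5 against 2.12 and 1.58 CPM (-2.70), and *Tnfaip2* at 54.3 and 53.3 against 25.0 and 24.1 CPM (-1.13). The adhesion genes *Icam1* and *Vcam1* were at 3.27 and 2.59 and at 3.03 and 3.12 CPM with vehicle and fell by 1.84 and 1.20 on the log2 scale, and *Il1b* fell by 1.89 from 2.32 and 1.82 CPM. *Il1b*, *Icam1* and *Csf3* all had fewer than 20 counts in each JSH-23 sample. *Ccl2* and *Cxcl10* rested on 12 and 7 against 3 and 0 counts and on 7 and 15 against 4 and 0 counts. *Saa3*, an acute phase protein, was at 10.985 and 12.1 CPM with vehicle but at 10.4 and 1.16 CPM with JSH-23, so that its call came from the second JSH-23 sample. Without that sample 12 of the 38 target genes were lower, and *Saa3*, *Ccl2* and *Cxcl10* were no longer called. *Ccl2* was also not called without the first vehicle sample nor *Cxcl10* without the second.

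Several targets at higher counts did not reach 1.5-fold. *Sdc4*, a heparan sulfate proteoglycan, was at 1002 and 989 against 728 and 742 CPM (log2 fold change -0.44), *Ier3*, an early survival gene, fell by 0.48, *Xiap*, a caspase inhibitor, by 0.28 and *Lcn2*, an iron-binding acute phase protein, by 0.26 on the log2 scale. *Sod2*, the mitochondrial superoxide dismutase, and *Gadd45b* were higher by 0.22 and 0.17. The values of *Ptgs2* (48.7 and 49.99 against 52.99 and 52.5 CPM), *Irf1* (105 and 99.8 against 107 and 102 CPM), *Bcl2l1*, *Bcl2*, *Cd44* and *Ninj1* did not pass the test.

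**Figure D3:**
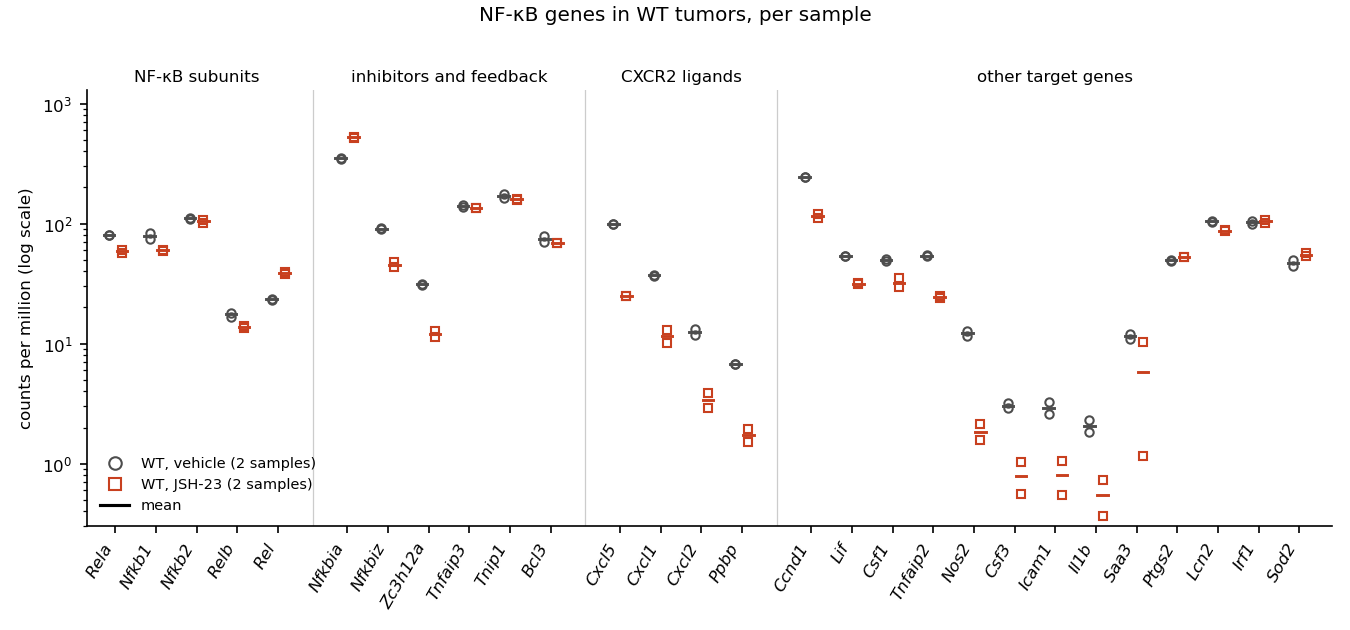
CPM (log axis) of NF-κB genes in each WT sample, circles for vehicle and squares for JSH-23, with the mean of the 2 samples as a bar. The 4 CXCR2 ligands shown lie lower with JSH-23, *Nfkbia* and *Rel* lie higher, and the 2 JSH-23 samples of *Saa3* lie far apart, at 10.4 and 1.16 CPM.

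Of the cytokine and interferon-stimulated genes that were called, most were lower, but most members were not called. Of 18 tested cytokine and growth factor genes of inflammation 6 were lower and none higher (median -0.66), the lower ones including *Lif*, *Csf1*, *Csf3* and *Il1b* as above. Interferon-stimulated genes were lower in 7 and higher in 2 of 30 tested cases (median -0.50), and 21 were not called. The antiviral kinase gene *Eif2ak2* fell from 31.1 and 31.3 to 15.1 and 15.7 CPM (log2 fold change -1.02), *Parp14* by 0.69 and *Oasl2* by 1.39 on the log2 scale, whereas *Bst2*, which encodes tetherin, rose from 44.0 and 38.5 to 69.8 and 66.6 CPM (0.73) and *Stat2*, a subunit of the interferon-activated factor, from 15.4 and 12.999 to 25.3 and 23.2 CPM (0.78). The lower count was 4 without the second JSH-23 sample, 12 without the first and 5 without the second vehicle sample, so it depended on which libraries were used. The motif of interferon response elements, GAAA repeated after any 2 bases, was present upstream of 11 of 22 of these genes with a promoter and of 2.94% of tested genes, *Bst2* and *Stat2* included. In the class I antigen presentation list 1 of 18 genes was higher and 1 lower (median 0.08): *Tap2*, a peptide transporter subunit, rose by 0.59 and *Psmb10*, an immunoproteasome subunit, fell by 1.07 on the log2 scale. *Tap2* was not called without the second vehicle or the second JSH-23 sample. Among 10 tested immune checkpoint ligand genes none was called in either direction by edgeR, DESeq2 or an unadjusted p under 0.05 with the same fold. At an adjusted p under 0.05 of any size 3 were higher and 2 lower, against 28.6% and 27.2% of all tested genes. *Cd47* was at 181 and 159 against 168 and 165 CPM.

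These falls occurred beside a lower sum of macrophage transcripts, most clearly in the second JSH-23 sample. The 12 macrophage genes summed to 32.2 and 33.8 CPM with vehicle and to 27.2 and 17.1 CPM with JSH-23, and 3 of the 7 tested were lower, namely *Cd14*, *Csf1r* and *Mrc1*, the last with 11 and 13 against 3 and 3 counts. The calls of *Csf1r* and *Mrc1* were lost when single libraries were left out (*Csf1r* without the second vehicle or second JSH-23 sample, *Mrc1* without the second vehicle or first JSH-23 sample). The part of macrophage transcripts in the changes of inflammatory genes was not tested. In sorted cells from a tissue, fewer cells of a type and less RNA per cell cannot be told apart. In the second JSH-23 sample *Adgre1* and *Csf1r* had 1 count each. Without it *Cxcl5*, *Cxcl1*, *Ccnd1* and *Nfkbiz* still differed between the groups, whereas *Saa3*, *Ccl2* and *Cxcl10* were no longer called. Leaving it out cannot separate the macrophage part, because the macrophage sum was also lower in the first JSH-23 sample, at 27.2 CPM. Single macrophage genes differed in that first JSH-23 sample. *Csf1r* had 15 counts against 21 and 24 with vehicle, and *Cd68* 98 against 110 and 127. *Adgre1* had 17 against 17 and 19, and *C1qa* 10 against 2 and 4. The 10 pan-leukocyte genes summed to 114 CPM in both vehicle samples and to 123 CPM in both JSH-23 samples, nearly all of it from *Arhgdib*, which averaged 114 CPM over the 4 WT samples. The 6 tested members had a median of -0.42 and *Laptm5* was called lower, with 12 and 16 against 9 and 0 counts, whereas *Ptprc* (7 and 3 against 10 and 0 counts) and *Cd53* were too low to test. The 12 neutrophil genes summed to at most 1.47 CPM, with 6 of them at 0 in all WT samples.

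Immediate early genes, which respond to growth factor and stress kinases within minutes and include the AP-1 subunits, were lower in 10 and higher in 1 of 31 tested cases (median -0.39). *Junb* fell from 459 and 449 to 235 and 242 CPM (log2 fold change -0.93, standard error 0.024) and *Fosl1* from 204 and 206 to 81.5 and 80.2 CPM (-1.34), both AP-1 subunits. *Dusp6*, a phosphatase of ERK and a readout of that kinase, was at 106 and 108 against 53.6 and 50.6 CPM (-1.03). *Egr1* and *Fos*, named after their values were seen, fell by 1.98 and 1.71 on the log2 scale from 4.93 and 5.47 and from 5.88 and 5.94 CPM. *Ccn2*, connective tissue growth factor, fell the most in the list, from 53.7 and 51.6 to 11.3 and 10.7 CPM (-2.25). The exception was *Fosb*, at 3.86 and 2.29 against 5.47 and 4.80 CPM, which was not called without the second vehicle sample. Among 14 tested YAP and TEAD targets, 3 were lower, *Ccn2*, *Ccn1* and *Ajuba*, and 1 was higher, the kinase gene *Nuak2* (1.22 on the log2 scale).

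Genes of DNA replication and S phase were mostly lower with JSH-23, whereas few genes of mitosis were called. Of 53 tested S phase genes 25 were called lower and 1 higher, 48 were lower at an adjusted p under 0.05 of any size, 50 had a negative log2 fold change and the median was -0.58. *Rrm2*, the subunit of ribonucleotide reductase that limits deoxynucleotide supply, was at 462 and 451 CPM with vehicle and 197 and 199 CPM with JSH-23 (-1.20, standard error 0.025, adjusted p = 2.11e-50). The replicative helicase genes *Mcm7* and *Mcm6* fell from 197 and 196 to 115 and 109 CPM (-0.81) and from 192 and 184 to 112 and 116 CPM (-0.72). *Uhrf1*, which couples DNA methylation to replication, fell from 146 and 146 to 94.5 and 92.4 CPM (-0.64). For each of these the 2 treated samples lay well below the 2 vehicle samples. *Ccne1*, the gene of cyclin E1, was higher, at 3.74 and 2.65 against 6.14 and 6.08 CPM (0.94). The largest falls of the list, named after their values were seen, were those of *Fen1*, a flap endonuclease of lagging-strand synthesis, from 40.7 and 39.3 to 14.7 and 15.6 CPM (-1.40), and *Cdc6*, which loads the helicase, from 21.5 and 23.4 to 9.16 and 8.69 CPM (-1.33). With any single WT sample left out, between 26 and 28 of the 53 genes were lower.

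In the mitosis and G2/M list 1 of 52 tested genes was lower and none higher, with 26 genes on either side of 0 and a median of 0.00. At an adjusted p under 0.05 of any size 17 were higher and 14 lower, against 28.6% and 27.2% of all tested genes. The 1 lower gene was *Mybl2*, a transcription factor of the cell cycle, at 64.4 and 63.7 against 41.3 and 43.3 CPM (-0.60), which fell short of 1.5-fold without the first JSH-23 sample. Of 42 DNA repair genes 4 were called lower (9.5%, close to the 10.2% over all tested genes) and 1 higher, with a median of -0.24. At an adjusted p under 0.05 of any size 25 of the 42 were lower and 6 higher. Of the genes called, *Exo1*, an exonuclease, fell from 27.0 and 30.3 to 16.3 and 15.9 CPM (-0.83). Among 20 tested genes of G1 control, *Ccnd1* and its partner kinase gene *Cdk6*, from 150 and 151 to 97.4 and 92.3 CPM (-0.66), were lower and *Ccne1* was higher. In nucleotide and one-carbon metabolism 4 of 27 were lower (14.8%, against 10.2% over all tested genes), with a median of -0.11. At an adjusted p under 0.05 of any size 13 were lower and 7 higher. Those called included *Rrm2*, which is also in the S phase list, *Mthfd1l* (-0.86) and *Tk1* (-0.83), the last an enzyme of thymidylate supply. Replication-dependent histone genes, many of which lack the poly(A) tail, were tested in only 10 of 24 cases, with 3 higher and 1 lower.

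The promoters of *Mcm6* and *Mcm7* are printed because motifs of E2F factors, the regulators of S phase genes, were common in this list. The letters searched on either strand were TTTCCCGC, TTTGGCGC or TTTCGCGC, again within 250 bases upstream, with matches in capitals and overlapping matches merged. RefSeq gives 2 starts for *Mcm7*, and the stretch lies before the one further upstream. The gene as annotated in the deposited table begins further upstream still (chr5:138164583-138172111), so this stretch lies inside that gene model.
Mcm6, chr1:128359706-128359855, - strand: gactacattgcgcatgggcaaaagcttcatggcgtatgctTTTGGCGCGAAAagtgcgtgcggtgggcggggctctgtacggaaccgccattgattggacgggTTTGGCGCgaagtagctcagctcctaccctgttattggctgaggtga
Mcm7, chr5:138171884-138172083, - strand: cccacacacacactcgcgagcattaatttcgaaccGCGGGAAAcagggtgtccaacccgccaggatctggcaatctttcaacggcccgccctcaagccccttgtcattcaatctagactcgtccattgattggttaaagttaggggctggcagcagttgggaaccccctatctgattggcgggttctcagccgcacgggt

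One of these motifs was upstream of 12 of 42 S phase genes with a promoter (28.6%), of 1 of 44 mitosis genes (2.3%) and of 3.25% of tested genes. Over all genes called lower the share was 3.58%, and over those called higher 3.18%.

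Cytosolic ribosomal protein genes showed small shifts that were alike across most members. Of 79 cytosolic ribosomal protein genes 76 had a positive log2 fold change, with a median of 0.14, and 71 were higher at an adjusted p under 0.05, but none was called by edgeR, DESeq2 or an unadjusted p under 0.05 with the same fold. *Rplp0* was at 4084 and 4053 against 4474 and 4501 CPM (0.14). Under the other scalings and filters the median of *Rplp0* and the other cytosolic ribosomal proteins lay between 0.10 and 0.15. Subunits of oxidative phosphorylation went both ways, with a median of 0.06, 1 of 65 called lower, and 22 higher and 13 lower at an adjusted p under 0.05 of any size. Mitochondrial ribosomal protein genes did so too, with a median of 0.01, and 5 of 36 higher and 7 lower at that adjusted p. Of 21 glycolysis genes 18 had a negative log2 fold change and 16 were lower at that adjusted p (median -0.27), although 1 was called in each direction, *Pfkfb4* higher (0.80) and the lactate transporter gene *Slc16a3* lower (-1.42). Hypoxia response genes were lower in 7 and higher in 1 of 28 cases (median -0.27). Of these, *Egln1*, a prolyl hydroxylase that senses oxygen, fell from 625 and 623 to 404 and 399 CPM (-0.63), and *Plod2* and *P4ha2*, which modify collagen, fell by 0.75 and 0.67 on the log2 scale.

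**Figure D4:**
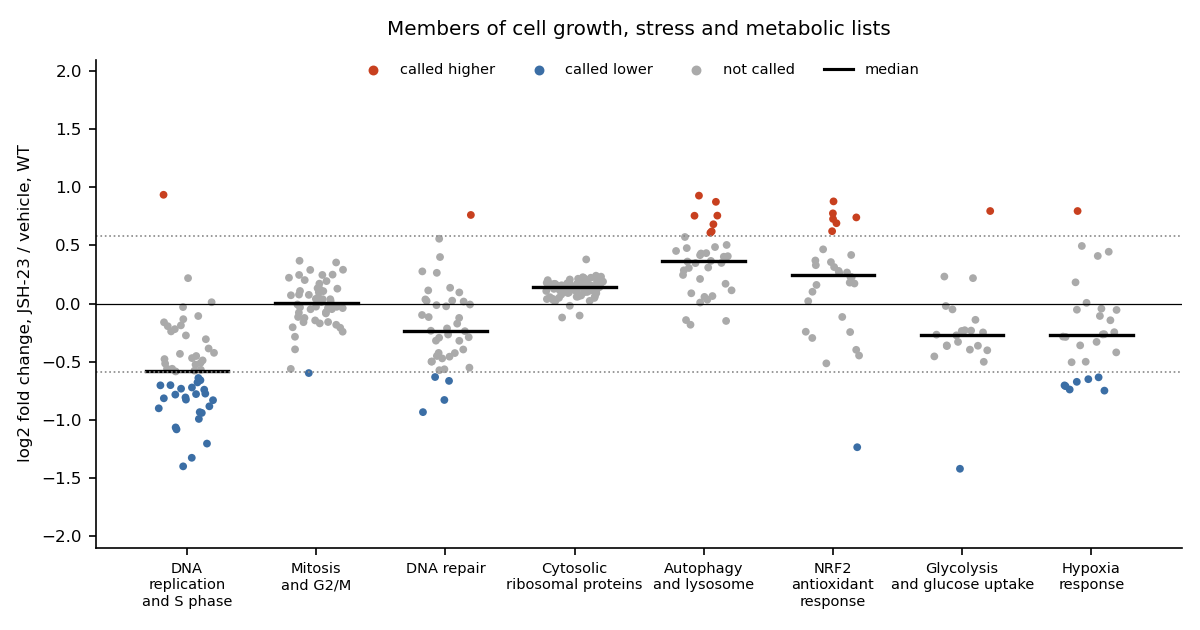
Log2 fold changes (JSH-23 over vehicle, WT tumors) of the tested members of 8 lists, 1 point a gene, with the list median as a bar and dotted lines at 1.5-fold. S phase genes centre on a median of -0.58 and mitosis genes on 0.00, ribosomal protein genes lie in a narrow band around 0.14, and lysosome genes lie mainly above 0.

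The lists with the largest numbers of genes called higher were those of lysosomes and of the antioxidant response, while some shorter lists had larger shares. Of 37 tested autophagy and lysosome genes 7 were higher (18.9%) and none lower, 34 were positive and the median was 0.37. The lysosomal membrane proteins *Lamp1* and *Lamp2* rose from 273 and 284 to 417 and 441 CPM (0.62) and from 133 and 132 to 211 and 215 CPM (0.68). *Ctsl*, a cysteine protease, rose from 243 and 243 to 367 and 375 CPM (0.61) and *Gpnmb*, a lysosome-associated glycoprotein, from 195 and 204 to 363 and 368 CPM (0.88). *Lamp1* fell just short of 1.5-fold without the second JSH-23 sample, while 7 genes of the list were called with any single WT sample left out. NRF2 is the transcription factor of the antioxidant response, and of its 30 tested genes 6 were higher and 1 lower (median 0.25). *Fth1*, the heavy chain of ferritin, rose from 1584 and 1560 to 2433 and 2407 CPM (0.62), the glutathione transferase genes *Gstp1* and *Gstm1* rose by 0.73 and 0.78, and *Taldo1*, of the pentose phosphate pathway, by 0.88 on the log2 scale. *Gstp1*, *Gstm1* and *Fth1* have near-identical copies whose reads the counting could split. The lower member was *Hmox1*, heme oxygenase 1, which fell from 127 and 129 to 54.8 and 53.6 CPM (-1.24, standard error 0.045). In cholesterol synthesis 3 of 23 genes were higher and none lower (median 0.25), *Fdps* by 0.63, *Mvd* by 0.88 and *Tm7sf2* by 1.08 on the log2 scale.

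Among genes of epithelial identity those called were lower, while others did not pass. In the basal and squamous list 8 of 15 tested genes were lower, all 15 were negative and the median was -1.01. The basal keratin gene *Krt15* fell from 28.2 and 29.0 to 7.82 and 7.84 CPM (-1.87), *Krt6a* from 34.7 and 35.8 to 11.3 and 11.4 CPM (-1.63) and *Lamb3*, a chain of basement membrane laminin, from 63.5 and 57.3 to 36.3 and 35.1 CPM (-0.76). *Krt5*, the defining basal keratin, was at 0 counts in all 4 WT samples. In the epithelial and luminal list 7 of 20 were lower, none higher and 13 not called (median -0.39), and 2 were higher at an adjusted p under 0.05 of any size. *Krt8* was at 59.7 and 51.1 against 33.2 and 32.8 CPM (-0.75), *Krt7* fell by 0.96 on the log2 scale, and *Grhl2*, a transcription factor of epithelial cells, by 0.60, short of 1.5-fold without the second vehicle or the first JSH-23 sample. *Krt19*, the simple keratin counted above, was at 41.0 and 36.7 against 11.6 and 13.9 CPM (-1.62). *Vim*, the mesenchymal filament vimentin, rose from 1147 and 1152 to 1785 and 1763 CPM (0.63), yet of the 20 tested genes of the epithelial-mesenchymal list 2 were higher and 3 lower (median -0.11). The lower ones included *Loxl2* (-0.83) and *S100a4* (-0.60), of which the last was not called without the first vehicle sample. Of 22 TGF-β and BMP genes 2 were lower (9.1%, close to the 10.2% over all tested genes), among them *Id1* (-0.65).

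Extracellular matrix genes moved both ways, with 5 of 40 higher and 7 lower (median 0.02). The higher ones rested in part on the first vehicle sample, in which smooth muscle transcripts were nearly absent. *Eln*, which encodes elastin, was at 0.238 and 4.53 CPM with vehicle against 3.52 and 5.96 CPM, and *Bgn*, biglycan, at 0.772 and 3.18 against 3.52 and 3.59 CPM. Without the first vehicle sample 2 matrix genes were higher, without the second JSH-23 sample 2, and *Eln* and *Bgn* were called in neither case. The lower matrix genes were tighter. *Col5a1* fell from 325 and 323 to 211 and 210 CPM (-0.62), *Lamb1* from 118 and 119 to 64.4 and 62.3 CPM (-0.91) and *Fbln2* by 0.64 on the log2 scale. *Adamts1*, a secreted metalloprotease, fell from 201 and 203 to 73.0 and 75.3 CPM (-1.45).

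In other lists called members often moved in both directions. In the STAT3 and IL-6 family 3 of 14 genes were higher (21.4%, median 0.37), the kinase gene *Pim1* (0.62), the repressor gene *Bcl6* (0.65) and *Cish* (0.66), while *Il6ra*, which encodes the IL-6 receptor, fell from 71.0 and 66.4 to 37.1 and 36.2 CPM (-0.90). *Pim1* was not called without the second JSH-23 sample nor *Cish* without the first. In prostaglandin metabolism 3 of 14 tested genes were higher and 2 lower. Of these, *Ptgs1*, cyclooxygenase 1, rose from 67.3 and 64.4 to 134 and 141 CPM (1.06), while *Ptgs2*, given above, was not called. The Notch receptor genes *Notch4* and *Notch3* fell by 0.91 and 0.96 and the ligand gene *Jag1* rose by 0.71 on the log2 scale. They were the 2 lower and the 1 higher of 11 tested Notch pathway genes (median -0.19). *Wnt5a* fell from 95.7 and 91.6 to 46.9 and 46.3 CPM (-1.01) and *Lgr4* rose by 0.83 on the log2 scale. They were the 1 lower and the 1 higher of 15 tested Wnt genes. The splicing factor genes *Srsf5*, *Srsf6* and *Srsf7* fell by 0.78, 0.73 and 0.70. They were the 3 lower of 38 spliceosome genes (7.9%, against 10.2% over all tested genes). *Nr1d1*, a repressor of the circadian clock, rose from 77.8 and 78.5 to 150 and 155 CPM (0.96) and *Ciart* fell by 0.86 on the log2 scale. They were the 1 higher and the 1 lower of 16 tested clock genes. *Cyp1b1*, a target of the aryl hydrocarbon receptor, fell by 1.13 while the receptor gene *Ahr* rose by 0.84 on the log2 scale. In their list of xenobiotic response 4 of 18 tested genes were lower and 2 higher, the other higher gene being *Cyp2b10* (2.14). Among 22 tested regulators of apoptosis of the BCL2 family none was called by edgeR, DESeq2 or an unadjusted p under 0.05 with the same fold. At an adjusted p under 0.05 of any size 9 were higher and 6 lower, against 28.6% and 27.2% of all tested genes. *Mcl1* was at 137 and 125 against 170 and 180 CPM (0.42).

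The genes with the largest changes were a mixed set. Among called genes of at least 5 CPM whose groups did not overlap, the 10 largest rises had log2 fold changes from 1.52 to 2.11. They were led by *Castor2*, related to an arginine sensor of mTORC1, at 4.69 and 5.65 against 21.8 and 22.9 CPM (2.11, standard error 0.124), *Mgp*, matrix Gla protein, at 6.18 and 7.59 against 25.2 and 27.0 CPM (1.92), and *Gli1*, a target and effector of Hedgehog signalling, at 4.04 and 4.35 against 15.4 and 15.7 CPM (1.89). *Eda2r*, a receptor of the TNF receptor family, had the most counts of the 10, at 71.4 and 73.7 against 230 and 227 CPM (1.65). The other 6 were *Slc25a25*, *Dgke*, *Gchfr*, *Cdr2*, *Itpka* and *Unc93b1*. The 10 largest falls had log2 fold changes from -2.70 to -1.87 and included *Nos2*, *Ackr3*, *Ccn2*, *Cdsn*, *Cxcl5*, *Acap1*, *Col16a1*, *Cxcl2* and *Krt15*. *Ackr3*, a scavenging chemokine receptor that binds CXCL12, was at 135 and 130 against 21.6 and 20.9 CPM (-2.64, standard error 0.054), and *Cdsn*, a protein of cornified cell junctions, at 66.3 and 68.5 against 16.4 and 13.1 CPM (-2.19).

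Among the called genes with the most reads, the 10 lower included *Ahnak*, *Tnxb*, *Neat1*, *Txnip*, *Arrb1*, *Egln1*, *Padi2*, *Gys1* and *Smtn*. *Ahnak*, a giant scaffold protein, fell from 5402 and 5381 to 3070 and 3035 CPM (-0.82). *Neat1*, the long non-coding RNA that builds paraspeckles (chr19:5824708-5845480), fell from 1292 and 1294 to 413 and 414 CPM, the largest fall of the 10 (-1.64, standard error 0.018). The 10 higher were *Fth1*, *Vim*, *Spp1*, *Serinc3*, *H1f0*, *Lamp1*, *Ctsl*, *Epn2*, *Gpnmb* and *Psme4*. *Spp1*, the secreted phosphoprotein osteopontin, rose from 877 and 878 to 1603 and 1624 CPM (0.88) and *H1f0*, a linker histone of non-dividing cells, from 332 and 334 to 549 and 545 CPM (0.72).

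**Figure D5:**
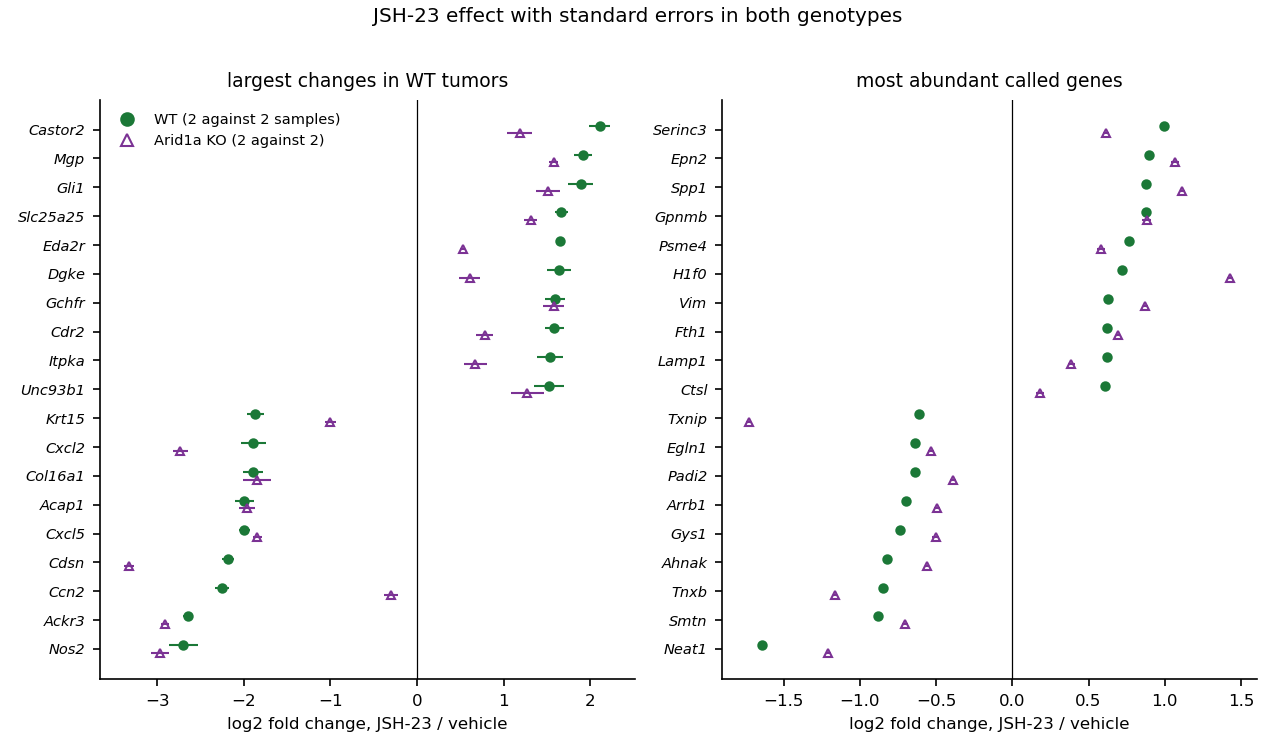
Log2 fold changes of JSH-23 over vehicle with standard errors in WT (filled circles) and *Arid1a* KO tumors (open triangles), for genes with the largest changes in WT tumors (left) and called genes with the most reads (right). All 38 genes shown lie on the same side of 0 in both genotypes, and *Ccn2* is far from 0 in WT tumors (-2.25) and near it in *Arid1a* KO tumors (-0.30).

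The comparison in *Arid1a* KO tumors shares no sample with that in WT tumors. There JSH-23 raised 1267 genes (9.1%) and lowered 2358 (16.9%). Of the genes lower in WT tumors, 1052 of 1424 (73.9%) were also lower in *Arid1a* KO tumors and 3 were higher, and of those higher in WT tumors, 380 of 773 (49.2%) were also higher and 14 were lower. By the interaction test the effect itself differed by at least 1.5-fold between the genotypes for 1262 genes (9.07%). The effect was more negative in *Arid1a* KO tumors for 134 and more positive for 32 of the genes higher in WT tumors, for 105 and 75 of those lower in WT tumors, and for 563 and 353 of those not called there. Genes higher or lower in WT tumors were chosen on values that enter this difference, so their split is only a description. Side by side, NF-κB target genes were lower in 15 of 38 cases in WT and in 23 of 38 in *Arid1a* KO tumors (medians -0.52 and -1.03), S phase genes in 25 and 23 of 53 (medians -0.58 and -0.47), and lysosome genes were higher in 7 and 5 of 37 (medians 0.37 and 0.18). *Rela* fell by 0.46 in WT and by 0.89 on the log2 scale in *Arid1a* KO tumors, a difference of -0.43 (adjusted p = 2.69e-07), while *Rel* rose by 0.73 and 0.16, a difference of -0.58 (adjusted p = 1.80e-06). The rise of *Nfkbia* was 0.58 in WT and 0.93 in *Arid1a* KO tumors, a difference of 0.35 (adjusted p = 2.49e-16). *Ccne1* rose in WT tumors and fell by 0.85 on the log2 scale in *Arid1a* KO tumors, a difference of -1.79 (adjusted p = 1.66e-09). Genotype differences were planned for the genes with the largest changes or the most reads, and *Rela*, *Rel*, *Nfkbia* and *Ccne1* are not among those.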

How the data were processed

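RNA sequencing was compared in 4 WT and 4 *Arid1a* KO tumor samples, 2 per genotype and treatment. The authors deposited raw counts per gene and TPM values made from the counts and gene lengths, in 1 table. The study's methods name TopHat2, strand-specific HTSeq-count and mouse genome GRCm38 (mm10), while the submitters' processing notes name HISAT2, HTSeq, DESeq2 and mm10, so the aligner is uncertain. Reads of near-identical gene copies may have been lost or split by the counting.

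Counts of all 8 samples were fitted with edgeR 4.0.16 (R 4.3.3; TMM scaling, filterByExpr, quasi-likelihood test, Benjamini-Hochberg adjustment), which left 13921 of 39089 genes. Genes were called at an adjusted p under 0.05 and 1.5-fold. CPM are counts over TMM-scaled library sizes. Total counts were 16401581 to 21972231 per sample, and the floor of 3 counts covers counting error only. Genes of untested low counts keep counts but no fold. The members and the gene lists were chosen with earlier results of these data known. Named are the NF-κB genes called or at 10 CPM or more, the 10 largest rises and 10 largest falls at 5 CPM or more without overlap and with a named gene, the 10 most abundant called genes in each direction, up to 4 called members per direction of each other list (the 2 most abundant where none was called), and cell type markers, and genes added after their values were seen are said to be so. A few genes that this rule names are not reported here. Replicate numbers did not pair the samples: correlations of same-numbered deviations lay between -0.007 and 0.026. Motifs were searched in RefSeq promoters (GRCm38.p6). Alternatives were DESeq2 1.42.0, limma 3.58.1 on log2(TPM + 1) and log2(TPM + 0.1), other scalings, filters, thresholds and spreads, and leaving out each sample. Calls within the lists under these alternatives were added after seeing the data. The scripts were tested on simulated data.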

Additional observations from a re-analysis of the deposited data

Results flagged for a closer look

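Of 38 genes named for the largest changes or the most reads, JSH-23 had an effect on 11 that differed by at least 1.5-fold between WT and *Arid1a* KO tumors (adjusted p under 0.05, interaction test of edgeR), and on 30 one that differed at that adjusted p by any size. Differences are the log2 fold change in *Arid1a* KO tumors minus that in WT tumors. Each of the 11 moved in the same direction in both genotypes.

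Rises were smaller in *Arid1a* KO tumors for *Eda2r*, with a difference of -1.13 (adjusted p = 1.80e-32) and a log2 fold change of 0.53 there, for *Dgke* (-1.03, adjusted p = 9.09e-06), *Castor2* (-0.92, adjusted p = 1.04e-04), *Itpka* (-0.86, adjusted p = 3.87e-04) and *Cdr2* (-0.80, adjusted p = 1.71e-05). The rise of *H1f0* was larger there, at 1.43, with a difference of 0.71 (adjusted p = 2.87e-32).

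Falls were smaller in *Arid1a* KO tumors for *Ccn2*, at -0.30 with a difference of 1.95 (adjusted p = 5.17e-23), and for *Krt15*, at -1.003 with a difference of 0.87 (adjusted p = 1.72e-08). They were larger there for *Cdsn* (difference -1.14, adjusted p = 2.01e-14), *Txnip* (-1.11, adjusted p = 1.10e-48) and *Cxcl2* (-0.84, adjusted p = 2.04e-04).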

How the results depend on the processing

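With 2 samples per group and a spread of 1.61%, calls rest on the fold threshold and on how the spread between these samples stands for that between tumors. In the order genes higher, genes lower and genes whose effect differed between genotypes (773, 1424 and 1262), the counts were 308, 531 and 667 for genes averaging 10 CPM or more, 224, 571 and 224 when tested against the 1.5-fold threshold, 3985, 3789 and 5346 with no fold threshold, and 205, 604 and 47 with a biological coefficient of variation of 0.2. With a coefficient of 0.1, 747 genes differed between genotypes, and limma on log2(TPM + 1) gave 448 higher genes. Leaving out each sample gave 718 to 762 higher, 1221 to 1327 lower and 1158 to 1242 differing genes, and kept 613 to 639 of the higher and 1132 to 1153 of the lower ones. The share of lower calls was 64.8% in the main result, 71.8% against the 1.5-fold threshold, 74.7% with a coefficient of 0.2 and 48.7% with no fold threshold. The other filters, scalings, DESeq2 and the unadjusted threshold kept these counts within 1.5 times. The replicate block gave 770, 1417 and 1269 and changed the call of none of the 244 named genes, but the numbers do not pair the samples. Among the 244, 14 calls were lost by DESeq2, 45 by limma on log2(TPM + 1) and 105 with a coefficient of 0.2.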
